A study of Mus musculus with 4 samples.

Results

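The secreted Wnt antagonist genes were the Dickkopf genes Dkk1, Dkk2 and Dkk3, the secreted Frizzled-related genes Sfrp1, Sfrp2, Sfrp4, Sfrp5 and Frzb, and Wif1. The rule that selects them uses gene symbols and no threshold on a measured value, and all 9 were found among the 22913 genes listed. RNA sequencing had been run on dermal white adipose tissue (dWAT), the adipose layer beneath the dermis that surrounds the bases of hair follicles, which was separated from the skin of C57BL/6 mice by microdissection. There was 1 library for each of 4 groups. Tissue had been harvested from 20 mice per group, and how these entered the library is not stated. OTD was dWAT of old mice of 18 months in telogen, the resting phase of the hair cycle, and YTD that of young mice of 2 months in telogen. OAD and YAD were dWAT of old and young mice in anagen, the growth phase, which had been induced by depilation in both. The age field of YTD reads 18 months and that of OAD 2 months, against their titles and descriptions, and the titles were followed here. If the age fields were right instead, both telogen libraries would be old, both anagen libraries would be young, no age comparison could be made, and anagen against telogen could not be told apart from young against old.

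Wnt proteins act at short range by binding Frizzled receptors and the co-receptors Lrp5 and Lrp6, which stabilises β-catenin and switches on genes through TCF/LEF factors. The antagonists act outside the cell. SFRP proteins and FRZB, which carry a Frizzled-like cysteine-rich domain, and WIF1 bind Wnt proteins themselves, whereas DKK1 and DKK2 occupy LRP5 and LRP6 with KREMEN proteins as co-receptors, and DKK3 is a divergent family member. In skin, Wnt signals start and maintain the growth of the hair follicle, and in fat they restrain adipocyte differentiation.

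Levels are FPKM, fragments per unit of feature length and of sequencing depth, as deposited. Setting them beside each other between genes assumes that fragments were counted over the same stretch as the listed length, which is not stated. A difference is that of log2(FPKM + 1), and genes with a difference of 1 or more in size were called changed, a limit that understates the change of genes near or below 1 FPKM. With 1 library per group there was no spread between animals, no test and no p-value. The 95% intervals of ratios are exact Clopper-Pearson intervals on fragments estimated from FPKM, length and depth, and they cover counting error only. The estimated depth was 19300000 to 24400000 fragments per library. A floor is the FPKM that 3 fragments give.

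The libraries differed in cell make-up. The summed FPKM of 14 adipocyte markers was 13342 in OTD and 12368 in YTD, against 3753 in OAD and 2739 in YAD, and none of them was at 0 in any library. Skeletal muscle markers summed to 60123, 94783, 14367 and 10828 in the same order, fibroblast and fat progenitor markers to 2624, 1874, 462 and 684, and hair matrix and shaft markers to 30.4, 84.9, 8720 and 8669. Sums were also higher in anagen for dermal papilla (30.6 to 40.6 in telogen, 70.2 to 90.6 in anagen), outer root sheath and stem cell (167 to 172, 890 to 1291), epidermal (25.6 to 32.8, 305 to 432) and melanocyte markers (16.2 to 19.1, 465 to 760). Single markers did not all follow these sums. Of 12 dermal papilla markers, 2 were lower in anagen in young and 5 in old mice. Of 9 outer root sheath and stem cell markers, 2 were lower at each age. Sums were lower in anagen for macrophage (506 to 831 in telogen, 105 to 133 in anagen), endothelial (395 to 621, 118 to 157), smooth muscle (364 to 624, 175 to 181) and Schwann cell markers (579 to 765, 111 to 137). Mitochondrial genes took 52.7% and 44.7% of the summed FPKM in OTD and YTD but 18.3% and 14.4% in OAD and YAD. In such bulk samples, fewer cells of a type and less RNA per cell cannot be told apart, nor can a group be told apart from its library.

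The stretches before the gene start are given for 3 genes. Wif1 and Sfrp5 moved in opposite directions between hair cycle phases at both ages, and Sfrp2 differed most between old and young mice. Each is RefSeq sequence on GRCm38.p6, on the strand of the gene, and capitals mark the only match to a searched motif, an E-box. Wif1 (chr10:121033754-121033959, + strand), Sfrp5 (chr19:42202253-42202502, - strand) and Sfrp2 (chr3:83766071-83766320, + strand) read as follows.
Wif1: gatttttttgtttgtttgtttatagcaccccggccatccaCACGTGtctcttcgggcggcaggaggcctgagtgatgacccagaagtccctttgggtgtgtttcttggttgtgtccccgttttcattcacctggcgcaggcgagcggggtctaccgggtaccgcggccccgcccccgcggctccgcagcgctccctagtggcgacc
Sfrp5: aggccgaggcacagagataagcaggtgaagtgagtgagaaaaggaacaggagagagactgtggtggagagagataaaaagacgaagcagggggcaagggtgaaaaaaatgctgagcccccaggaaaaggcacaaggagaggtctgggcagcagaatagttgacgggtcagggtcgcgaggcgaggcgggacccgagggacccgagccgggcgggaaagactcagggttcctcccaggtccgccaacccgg
Sfrp2: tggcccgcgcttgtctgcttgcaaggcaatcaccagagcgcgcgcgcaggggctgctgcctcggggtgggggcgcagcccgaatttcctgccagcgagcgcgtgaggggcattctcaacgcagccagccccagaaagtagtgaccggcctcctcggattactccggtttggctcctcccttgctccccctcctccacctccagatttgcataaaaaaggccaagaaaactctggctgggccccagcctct

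RefSeq promoters were matched for 6 of the 9 genes (Dkk1, Dkk2, Sfrp2, Sfrp5, Wif1 and Frzb). The 250 bases before each RefSeq start were searched for TCF/LEF letters (CTTTGAA and CTTTGAT), C/EBP letters (TTGCGCAA and TTGCACAA) and the E-box CACGTG on both strands, and for the TATA box TATAAA on the strand of the gene. Dkk1 held CTTTGAA at position -117 and TATAAA at position -54, counted back from its RefSeq start. Dkk2 held TATAAA at position -32, and Wif1 held CACGTG at position -210. No searched letters were found in the windows of Sfrp2, Sfrp5 and Frzb. Over 32851 RefSeq windows of 250 bases, 7.48% held the TCF/LEF letters, 1.06% the C/EBP letters, 6.02% the E-box and 7.59% the TATA box. A match describes letters only.

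The antagonists differed in level and in where they were highest. In both telogen libraries Sfrp5 had the highest FPKM of the 9 genes, and in both anagen libraries Wif1 had. Dkk1 was the lowest in each library.

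**Figure D1:**
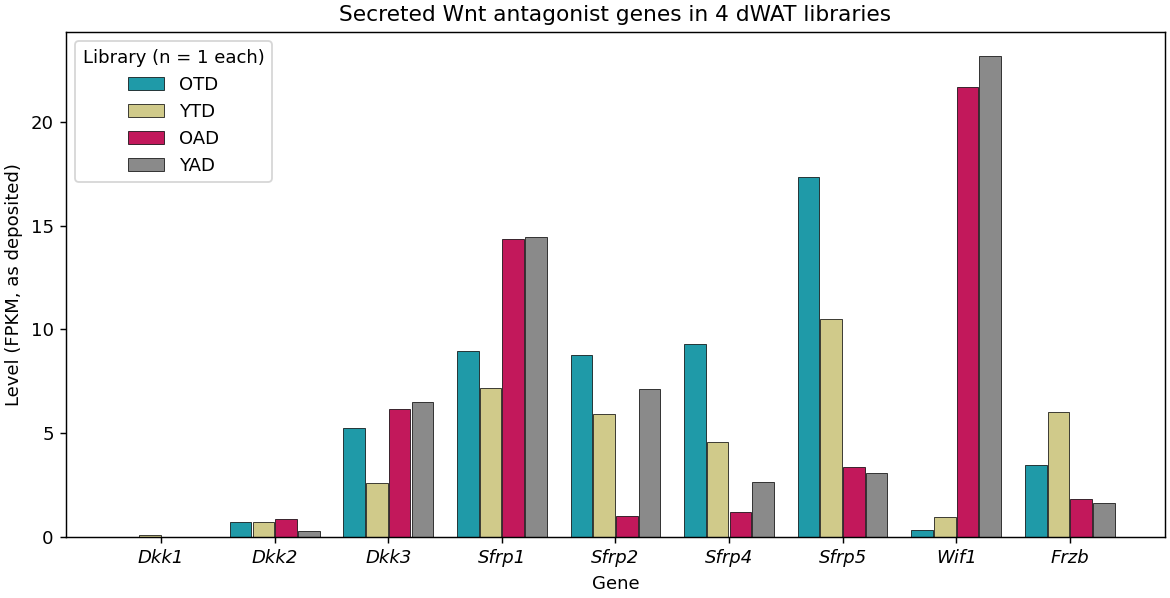
Level of each secreted Wnt antagonist gene (vertical axis, FPKM as deposited) in the libraries OTD, YTD, OAD and YAD (1 bar each, 1 library per group, no error bar can be given). Wif1 stands at 21.7 and 23.2 in the anagen libraries and below 1 in telogen, while Sfrp5 is highest in OTD at 17.3 and Sfrp2 lowest in OAD at 1.02.

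Among the Dickkopf genes, Dkk1 (ENSMUSG00000024868, chr19:30545863-30549665 on GRCm38) was not detectable above the floor. It was listed at 0 FPKM in OTD, OAD and YAD, and its level of 0.0866 FPKM in YTD came from an estimated 1.4 fragments. A count of 0 allowed levels of up to 0.176 FPKM in OTD, 0.150 in OAD and 0.156 in YAD, so no fold can be given for Dkk1 in any comparison.

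Dkk2 (ENSMUSG00000028031, chr3:132085292-132180293) was low throughout. Its levels were 0.726 FPKM in OTD and 0.731 in YTD, against 0.862 in OAD and 0.270 in YAD, from an estimated 11.8, 11.0, 16.4 and 4.9 fragments. YAD was the lowest, but no step between neighbours in the order of levels exceeded the counting error. OAD was 3.20-fold above YAD (interval 1.08 to 10.7), which on the log2(FPKM + 1) scale was a difference of 0.55, below the limit. OTD and YTD did not differ beyond counting error, with a ratio of 0.994 (interval 0.408 to 2.52).

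Dkk3 (ENSMUSG00000030772, chr7:112116019-112159057) was the Dickkopf gene with the highest level in each library. Its levels were 5.27 FPKM in OTD and 2.58 in YTD, against 6.17 in OAD and 6.51 in YAD. YTD stood apart below the other 3 libraries, whose neighbouring values did not differ beyond counting error. In telogen the old library was 2.04-fold above the young (interval 1.46 to 2.90), a difference of 0.81 that stayed under the limit, and in anagen the difference was -0.07. In young mice Dkk3 rose from telogen to anagen, by 2.52-fold (interval 1.84 to 3.52, log2 difference 1.07). In old mice the ratio of anagen to telogen was 1.17 (interval 0.917 to 1.51).

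Sfrp1 (ENSMUSG00000031548, chr8:23411502-23449632), an SFRP that binds Wnt proteins, was among the 3 highest of the 9 genes in each library. Its levels were 8.96 FPKM in OTD and 7.19 in YTD, against 14.4 in OAD and 14.5 in YAD. Both anagen libraries lay above both telogen libraries. The ratio of anagen to telogen was 2.01 in young mice (interval 1.64 to 2.48, log2 difference 0.92) and 1.61 in old mice (interval 1.34 to 1.95, log2 difference 0.63). Both were short of the limit as deposited and past it in TPM (1.69 and 1.19), where each value is a share of the library's summed FPKM. In TPM without mitochondrial genes the differences were 1.15 in young and 0.49 in old mice. They were 0.98 and 0.37 without mitochondrial and muscle genes. Old and young mice did not differ beyond counting error in either phase, with log2 differences of 0.28 in telogen and -0.01 in anagen.

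Sfrp2 (ENSMUSG00000027996, chr3:83766321-83774316), also a Wnt-binding SFRP, was the antagonist with the largest difference between ages. Its levels were 8.76 FPKM in OTD and 5.90 in YTD, against 1.02 in OAD and 7.14 in YAD, from an estimated 162, 101, 22.1 and 149 fragments. OAD stood far below the other 3 libraries, and among those the neighbouring values did not differ beyond counting error. In anagen, Sfrp2 was lower in old than in young mice by 7.01-fold (interval 4.48 to 11.6, log2 difference -2.01). In telogen the sign was the opposite, with an old-to-young ratio of 1.48 (interval 1.15 to 1.92, log2 difference 0.50). From telogen to anagen Sfrp2 fell in old mice by 8.59-fold (interval 5.50 to 14.1), whereas in young mice the ratio of anagen to telogen was 1.21 (interval 0.934 to 1.57). The antisense gene Gm26771 of GENCODE vM21 overlaps the 3′ end of Sfrp2 from position 83773853 on the opposite strand. It was not analysed here, and since the sources do not say whether strand was used, fragments of the 2 genes cannot be told apart there.

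Sfrp4 (ENSMUSG00000021319, chr13:19623175-19632821) had a distinct level in each library. Its levels were 9.30 FPKM in OTD and 4.59 in YTD, against 1.17 in OAD and 2.66 in YAD, and each step in the order OTD, YTD, YAD and OAD exceeded the counting error. In telogen the old library was 2.03-fold above the young (interval 1.59 to 2.63), and in anagen it was below it by 2.27-fold (interval 1.46 to 3.65). On the log2(FPKM + 1) scale these differences were 0.88 and -0.75, both short of the limit. From telogen to anagen Sfrp4 fell in old mice by 7.94-fold (interval 5.44 to 12.2, log2 difference -2.25). In young mice the level in telogen was 1.72-fold that in anagen (interval 1.24 to 2.39, log2 difference -0.61). This direction turned when the values were scaled to TPM (0.05), but not in TPM without mitochondrial genes (-0.48) or without mitochondrial and muscle genes (-0.65).

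Sfrp5 (ENSMUSG00000018822, chr19:42197971-42202252), which is known as a Wnt inhibitor secreted by adipose tissue, was the leading antagonist of telogen dWAT. Its levels were 17.3 FPKM in OTD and 10.5 in YTD, against 3.37 in OAD and 3.09 in YAD. Both telogen libraries lay above both anagen libraries, and OAD and YAD did not differ beyond counting error. Sfrp5 fell from telogen to anagen by 3.41-fold in young mice (interval 2.56 to 4.53, log2 difference -1.49) and by 5.14-fold in old mice (interval 4.0 to 6.65, log2 difference -2.07). In telogen the old-to-young ratio was 1.65 (interval 1.38 to 1.98, log2 difference 0.67), and in anagen the log2 difference was 0.10.

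Frzb (ENSMUSG00000027004, chr2:80411970-80447625), the SFRP family member also called Sfrp3, was highest in young telogen. Its levels were 3.44 FPKM in OTD and 6.02 in YTD, against 1.83 in OAD and 1.64 in YAD. Alone among the SFRP genes it was lower in OTD than in YTD, by 1.75-fold (interval 1.28 to 2.39, log2 difference -0.66). It fell from telogen to anagen in young mice by 3.66-fold (interval 2.49 to 5.38, log2 difference -1.41). In old mice the level in telogen was 1.88-fold that in anagen (interval 1.29 to 2.85, log2 difference -0.65). Skeletal muscle markers had the same order of summed levels over the libraries as Frzb, and all 12 were lower in OTD than in YTD (median difference -0.69). Their part in the Frzb values was not tested.

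Wif1 (ENSMUSG00000020218, chr10:121033960-121100650), whose product binds Wnt proteins through its WIF domain, had the widest range of the 9 genes. Its levels were 0.323 FPKM in OTD and 0.953 in YTD, against 21.7 in OAD and 23.2 in YAD, from an estimated 7.7, 20.9, 603 and 620 fragments. Both anagen libraries stood far above both telogen libraries. Wif1 rose from telogen to anagen by 24.3-fold in young mice (interval 15.7 to 39.4, log2 difference 3.63) and by 67.2-fold in old mice (interval 32.5 to 150, log2 difference 4.10). In telogen it was lower in old mice by 2.95-fold (interval 1.21 to 7.41), which at these low levels was a log2 difference of -0.56. In anagen the ages did not differ beyond counting error (log2 difference -0.09). Hair matrix and shaft markers moved in the same directions, since all 11 rose into anagen at both ages and all 11 had a lower value in OTD than in YTD (6 of them past the limit, median difference -1.13). The part of these cells in the Wif1 values was not tested.

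**Figure D2:**
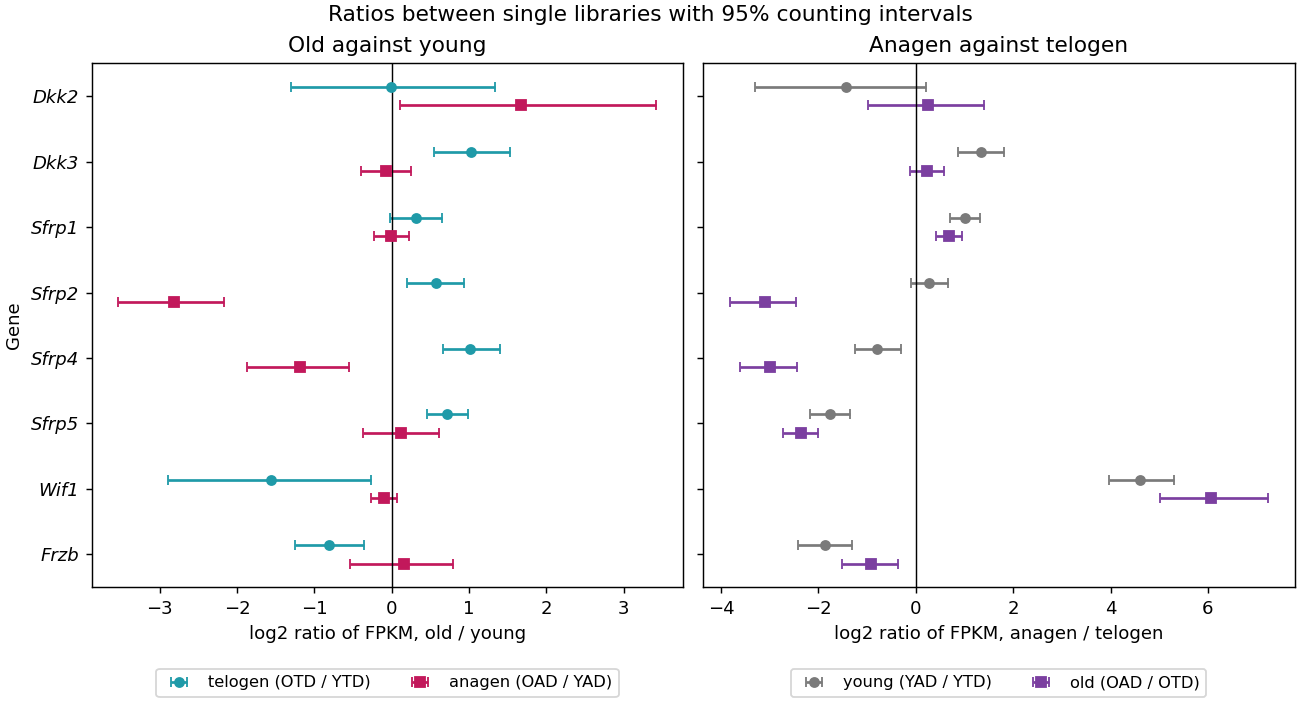
Ratio of FPKM between single libraries on a log2 scale (horizontal axes) for 8 of the genes, with 95% counting intervals as bars; the left panel shows old over young in telogen and anagen, the right panel anagen over telogen in young and old mice. Dkk1 is left out because its values are under the floor, Sfrp2 and Sfrp4 lie on opposite sides of 0 in the 2 phases on the left, and Wif1 lies far to the right and Sfrp5 to the left of 0 at both ages on the right.

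The first question of the design was how old dWAT differs from young dWAT in telogen. None of the 9 antagonists passed the limit of 2-fold in either direction, against 1.67% of all genes that were higher and 1.93% that were lower in OTD. The value was higher in OTD for 5 genes (Dkk3, Sfrp1, Sfrp2, Sfrp4 and Sfrp5) and lower for 4, and the median difference was 0.28, against -0.03 over all genes. The counting interval of the ratio lay above 1 for Dkk3, Sfrp2, Sfrp4 and Sfrp5 and below 1 for Wif1 and Frzb. With mitochondrial genes taken out of the total, Dkk3 and Sfrp4 passed the limit, with differences of 1.06 and 1.13. Of the fibroblast and fat progenitor markers, 13 of 15 also had a higher value in OTD (median difference 0.42), as did all 10 endothelial markers (median 0.62) and 9 of 10 macrophage markers (median 0.44). None of these markers was at 0 in any library, and their part in the antagonist values was not tested.

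In anagen, Sfrp2 was the only antagonist past the limit. No antagonist was higher in OAD than in YAD by this measure, against 0.727% of all genes, and 1 of 8 with a value above 0 was lower, against 0.454% of all genes. The median difference over the 8 genes was -0.04, against 0.00 over all genes, so the antagonists as a group stood near the rest. Besides Sfrp2, the intervals excluded a ratio of 1 for Dkk2 and Sfrp4. Fibroblast and fat progenitor markers were lower in OAD for 11 of 15 (3 past the limit, median difference -0.31). Among them the collagen genes Col1a1 (16.5 FPKM in OAD, 64.4 in YAD), Col1a2 (21.7 and 78.3) and Col3a1 (33.5 and 95.6) were those past the limit, with the lowest difference of the list at -1.90, close to that of Sfrp2. Their part in the Sfrp2 and Sfrp4 values was not tested.

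Against Sfrp1, which did not differ between ages beyond counting error, the age pattern can be read within each library, where no scaling between libraries enters. Sfrp2 stood at 0.978 of the Sfrp1 level in OTD and 0.820 in YTD, but at 0.0708 in OAD and 0.494 in YAD. Sfrp4 stood at 1.04, 0.638, 0.0814 and 0.184 of it in the same order. Sfrp1 was taken as the reference with its values known, so these ratios describe the same values and add no support.

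The design also allowed anagen to be set against telogen within each age, with the same 4 libraries as in the comparisons of age, so that these are not independent of each other. Anagen had been induced by depilation, so the phase cannot be told apart from depilation here. In young mice, 2 antagonists rose (Dkk3 and Wif1), against 16.1% of all genes, and 2 fell (Sfrp5 and Frzb), against 16.7%. In old mice, 1 rose (Wif1), against 16.1% of all genes, and 3 fell (Sfrp2, Sfrp4 and Sfrp5), against 15.6%. The median difference was -0.12 in young and -0.27 in old mice, against 0.02 and 0.01 over all genes. Scaling to TPM moved the median of all genes to 0.45 in young and 0.32 in old mice. On that scale Sfrp5 and Frzb in young mice had differences of -0.79 each and missed the limit. There, Wif1 rose and Sfrp2, Sfrp4 and Sfrp5 fell in old mice as before. In TPM without mitochondrial genes, Sfrp5 and Frzb in young mice passed the limit (-1.39 and -1.37). They also did without mitochondrial and muscle genes (-1.57 and -1.54). Adipocyte markers were lower in anagen at both ages for all 14 (median -1.51 in young and -1.40 in old mice), as were 13 of 15 fibroblast and fat progenitor markers (median -1.15 and -2.37). All 12 skeletal muscle markers (median -3.10 and -1.99), all 10 endothelial markers (-1.62 and -1.88) and all 10 macrophage markers (-1.47 and -2.31) were lower in anagen as well. The part of these cells in the fall of the SFRP genes was not tested.

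The make-up of the antagonist pool differed between phases. The summed level of the 9 genes was 54.1 FPKM in OTD and 38.6 in YTD, against 50.5 in OAD and 59.0 in YAD. SFRP genes with Frzb made up 88.3% and 88.7% of it in OTD and YTD, but 43.1% and 49.2% in OAD and YAD. Wif1 took 0.596% and 2.47% in the telogen libraries and 42.9% and 39.3% in the anagen libraries, while the Dickkopf share stayed between 8.82% and 13.9%. Within a library, Sfrp5 was 53.8-fold above Wif1 in OTD and 11.0-fold in YTD, whereas Wif1 was 6.43-fold above Sfrp5 in OAD and 7.50-fold in YAD.

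**Figure D3:**
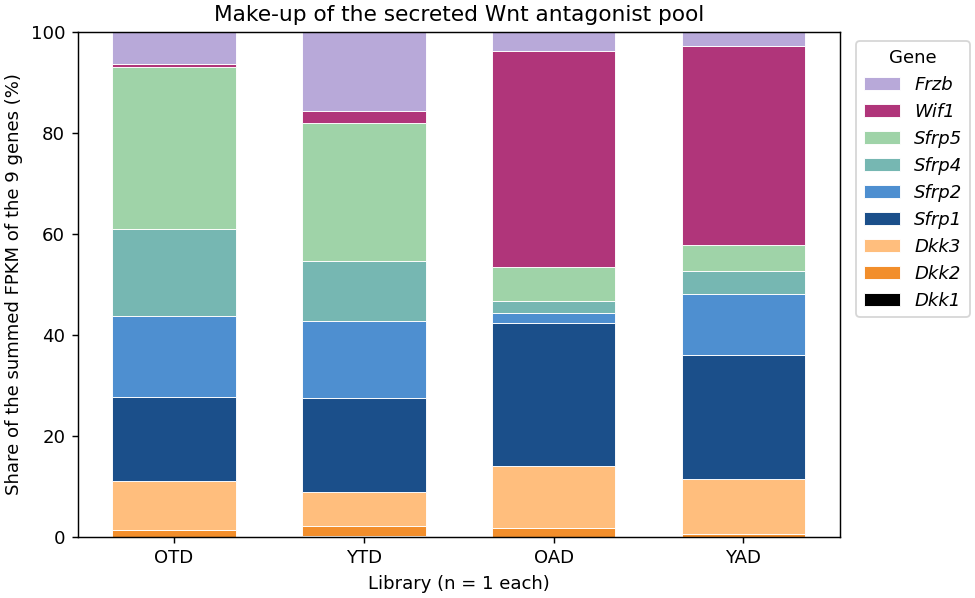
Share of each gene in the summed FPKM of the 9 antagonists (vertical axis, percent) in each library (1 stacked bar per library, no replicates). Sfrp5 takes 32.1% in OTD and 27.3% in YTD, and Wif1 takes 42.9% in OAD and 39.3% in YAD.

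The direction of the summed SFRP and Frzb level depended in part on the scaling. It was lower in anagen than in telogen in old mice by 2.20-fold, and it stayed lower in TPM (1.43-fold). In young mice it was lower by 1.18-fold as deposited but higher by 1.52-fold in TPM. In TPM without mitochondrial genes it was again lower, by 1.02-fold, and without mitochondrial and muscle genes by 1.16-fold. The summed level of all 9 genes was 1.53-fold higher in anagen in young mice (2.75-fold in TPM). In old mice the ratio of anagen to telogen was 0.933 as deposited but 1.43 in TPM. It was 0.828 in TPM without mitochondrial genes and 0.761 without mitochondrial and muscle genes.

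The summed level of the Wnt ligands, which the SFRP and WIF1 proteins bind, moved further between phases than that of the antagonists. The 19 Wnt ligands summed to 24.5 FPKM in OTD and 33.4 in YTD, against 183 in OAD and 193 in YAD. The summed antagonists per summed ligand were therefore 2.21 in OTD and 1.15 in YTD, against 0.277 in OAD and 0.305 in YAD, a ratio within each library that no scaling changes. It was higher in OTD than in YTD, where the antagonist sum was 1.40-fold higher and the ligand sum 1.36-fold lower, and OAD and YAD lay close to each other. These are sums of transcript levels and carry no counting interval.

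**Figure D4:**
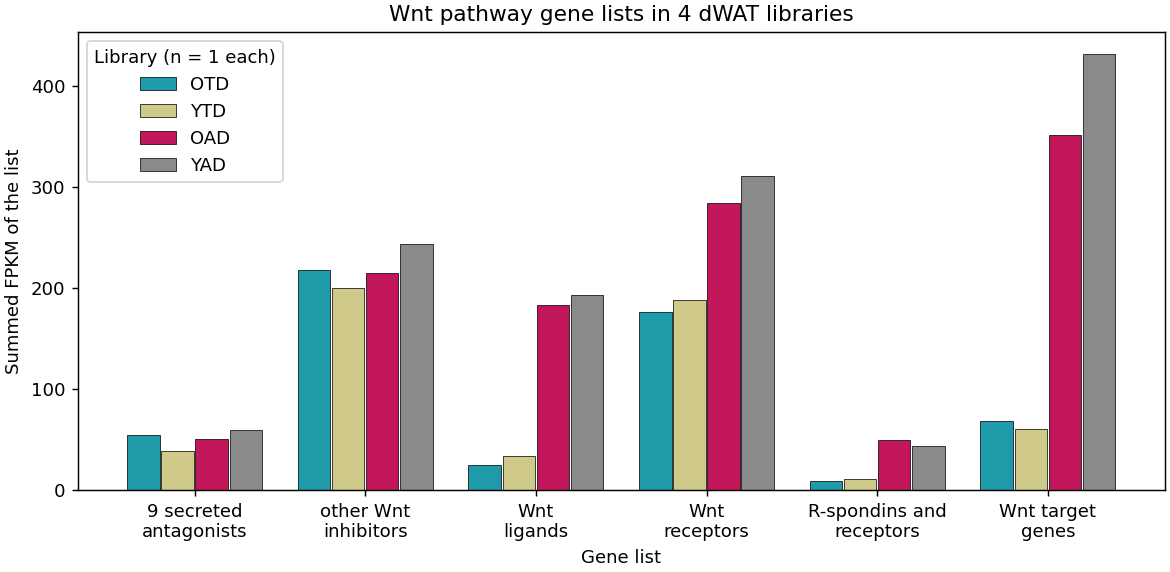
Summed FPKM (vertical axis) of the 9 secreted antagonists and of 5 other Wnt pathway lists in each library (1 bar per library, no replicates; some genes are in more than 1 list). The antagonist sum lies between 38.6 and 59.0 in each library, while the ligand sum goes from 24.5 and 33.4 in telogen to 183 and 193 in anagen.

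Of the ligands, 9 rose and 1 fell from telogen to anagen in young mice (16.1% and 16.7% of all genes), and 9 rose and none fell in old mice (16.1% and 15.6% of all genes). Wnt10b, a ligand of canonical signalling in the follicle, went from 0.523 FPKM in YTD to 26.2 in YAD and from 0.219 in OTD to 13.6 in OAD. Wnt11, which acts largely outside the β-catenin branch, went from 9.26 to 63.1 FPKM in young mice and from 6.95 to 61.8 in old mice. Between ages no ligand passed the limit as deposited, and the median difference was -0.14 in telogen and -0.01 in anagen. In anagen, Wnt10b passed it as lower in old mice in TPM (-1.13) and in TPM without mitochondrial genes (-1.07) or without mitochondrial and muscle genes (-1.07). In these scalings 5 ligands were higher and 13 lower in OAD, against 9 and 9 as deposited.

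Of 16 Wnt receptors, 8 rose and 2 fell into anagen in young mice, and 7 rose and 1 fell in old mice, with none changed between ages. As for the lists that follow, these counts stand beside 16.1% of all genes that rose at each age and 16.7% in young and 15.6% in old mice that fell. Fzd10 rose from 1.47 FPKM in OTD to 32.6 in OAD, while Fzd4 fell from 56.1 to 11.3 between the same libraries. Of the 7 R-spondins and their receptors, which strengthen Wnt signals, 6 rose and none fell at either age, with none changed between ages. Of 17 Wnt target genes, a list that holds Wif1 and Dkk1 themselves, 15 rose in young and 13 in old mice and none fell. Lef1, a transcription factor of the pathway and a target of it, went from 1.77 FPKM in YTD to 54.4 in YAD and from 0.333 in OTD to 49.1 in OAD. Between ages, the target genes Myc (15.9 FPKM in OTD, 5.72 in YTD) and Lef1 (log2 difference -1.06) changed in telogen, and none changed in anagen as deposited. In TPM the Lef1 call was lost, and Ccnd1, a cell cycle gene, was called lower in old anagen (-1.01). In TPM without mitochondrial genes (-1.19) and without mitochondrial and muscle genes (-1.29) the Lef1 call stood. In these 2 scalings Ccnd1 was not called.

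The genes whose pattern over the 4 libraries was most like that of an antagonist were found by the root mean square difference of centred log2(FPKM + 1) values, over 13611 genes. With 4 points, this is a description. Wif1 was closest to Nectin1 (0.0301), to Nkd2, an intracellular Wnt inhibitor and target (0.0612), and to Fam84a (0.0772), and 9 genes lay within 0.1. No gene lay within 0.1 of Sfrp2 or Sfrp4. Sfrp2 was closest to Gm10479 (0.234), to the collagen gene Col14a1 (0.259) and to Cd83 (0.334), and Sfrp4 to Hdc (0.133), Cldn11 (0.138) and Inka1 (0.138). Many genes shared the patterns of Sfrp1 (300 within 0.1, closest Homer3 at 0.0090), Frzb (145, Mdh2 at 0.0204), Sfrp5 (63, Gng11 at 0.0186) and Dkk3 (32, Elf1 at 0.0357).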

How the data were processed

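RNA of dWAT had been sequenced in 4 libraries, 1 for each age and hair cycle phase. Each file the authors deposited holds FPKM of 22913 genes, with positions on GRCm38 and the length of each listed feature in bases (99.2% of the Ensembl lengths are multiples of 3, so these are coding lengths). The submitters' processing notes name bcl2fastq and TopHat2. The counting tool, annotation, strandedness and any scaling between libraries are not given in the sources used here. Of 22166 Ensembl identifiers, 21750 were matched to a symbol, and 747 further loci have none.

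The 9 genes were proposed, and the gene lists and alternatives chosen, with earlier results of these data known, from a description of the whole series, although the rule itself uses symbols only. Lists held 202 genes, of which 199 had values, and the rest were not analysed here. The named genes are the 9 antagonists, the 6 largest changes at most per pathway list among genes at FPKM 1 or more in a library, and the 3 genes most like each antagonist with an FPKM of 1 or more. Not every gene this rule allows was named, and a few other listed genes are named beside them.

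The FPKM were used as deposited, with a pseudocount of 1. Groups were taken from sample titles. No test was possible with 1 library per group, so no p-value or SD is given, and no pairing of replicates exists. Depth was estimated roughly from features of 2000 to 4000 bases, whose FPKM times length gathers at the value of 1 fragment. Intervals and floors rest on this depth and cover counting error only. The steps were tested on simulated data. Alternatives were pseudocounts of 0.1 and 0.01, a filter at FPKM 1, median-of-ratios scaling, TPM with and without mitochondrial and muscle genes, and a limit of 1.5-fold. Python 3.11.15, numpy 2.4.6, pandas 2.3.3, scipy 1.17.1 and matplotlib 3.10.9 were used.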

Additional observations from a re-analysis of the deposited data

Results flagged for a closer look

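Sfrp2 and Sfrp4 were singled out because old and young dWAT differed in opposite directions in the 2 hair cycle phases, each beyond counting error. For Sfrp2 the log2 difference of old from young was 0.50 in telogen and -2.01 in anagen, and the second minus the first was -2.51. For Sfrp4 the differences were 0.88 and -0.75, and the second minus the first was -1.64. With 1 library per group, the difference between phases was not tested, and OAD is the only library of old mice in anagen. The signs of all 4 differences stayed the same under each alternative tried, of which only the scalings could change a sign. Fibroblast and fat progenitor markers had medians of 0.42 in telogen and -0.31 in anagen, and their part in this was not tested.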

How the results depend on the processing

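Of 34 differences of single antagonists, 27 kept their sign under every alternative and 7 changed it under at least 1, among them no difference that was called. The largest of those 7 was 0.61 in size (Sfrp4 between phases in young mice). Only the scalings could change a sign, since pseudocounts, the filter and the fold limit cannot. The differences of Dkk1, counted among the 27, set 0 against an estimated 1.4 fragments, and no scaling can turn them. Counts of changed antagonists depended more on the settings, and the cause was not tested beyond the construction of each setting. In telogen, 0 were changed between ages, but 3 with a pseudocount of 0.1 (2 higher, 1 lower) and 4 with 0.01 (2 higher, 2 lower). There were 2 in TPM without mitochondrial genes or without mitochondrial and muscle genes (2 higher in each), and 4 with a limit of 1.5-fold (3 higher, 1 lower). With a pseudocount of 0.01, 1 of the 2 lower genes was Dkk1, which was under its floor in both libraries. Of all genes, 6.27% were higher and 6.17% lower with 0.1, and 10.4% and 9.55% with 0.01. In TPM the shares were 3.81% and 1.57% without mitochondrial genes, and 3.65% and 1.98% without mitochondrial and muscle genes. The 1.5-fold limit called 6.75% of all genes higher and 9.23% lower. In anagen, 1 was changed between ages, but 3 with either smaller pseudocount (1 higher, 2 lower) and 2 with the 1.5-fold limit (2 lower). Of all genes, 3.28% were higher and 3.02% lower with 0.1, and 7.02% and 6.81% with 0.01. With the 1.5-fold limit the shares were 2.98% and 1.99%. Between phases, 4 were changed in young mice, but 5 with a pseudocount of 0.1 (3 lower) and 7 with 0.01 (4 lower). Dkk1, under its floor in both libraries, was again among these 4 lower genes. The limit of 1.5-fold gave 6 (3 lower), TPM without mitochondrial genes 5 (2 lower), and in TPM 3 rose and 0 fell. Of all genes, 23.8% rose and 24.3% fell with 0.1, and 27.8% and 27.6% with 0.01. The shares were 26.2% and 26.1% with the 1.5-fold limit, 21.6% and 15.4% in TPM without mitochondrial genes, and 33.4% and 7.23% in TPM. In old mice 1 rose and 3 fell, but 2 rose and 3 fell in TPM, and 2 rose and 4 fell with the 1.5-fold limit. Of all genes, 27.8% rose and 8.48% fell in TPM in old mice, and 26.0% and 24.8% with the 1.5-fold limit. No paired analysis was possible because each group has 1 library. For the same reason no library could be left out. Estimated depth limits Dkk1 and Dkk2 most, with at most 16.4 fragments.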

Other observations

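Wnt inhibitors other than the 9 secreted antagonists included several that rose into anagen. Of 16 with values, 7 rose and 1 fell at each age, against 16.1% of all genes that rose at each age and 16.7% in young and 15.6% in old mice that fell. The summed level of the list was 218 FPKM in OTD and 200 in YTD, against 215 in OAD and 244 in YAD. Igfbp4, its highest gene in telogen, went from 141 FPKM in OTD to 70.6 in OAD and from 103 in YTD to 58.2 in YAD. Shisa2, which fell past the limit at both ages, went from 36.8 to 14.6 FPKM in old and from 50.5 to 14.7 in young mice. Notum, Rnf43, Znrf3 and Apcdd1 of this list are also on the list of Wnt target genes, so the counts of these lists overlap. Notum, a secreted enzyme that removes the lipid from Wnt proteins, went from 0.108 FPKM in YTD to 12.9 in YAD and from 0.0833 in OTD to 12.6 in OAD. Rnf43 and Znrf3, which remove Frizzled receptors from the cell surface, reached 10.6 and 9.39 FPKM in YAD against 0.308 and 1.52 in YTD. Kremen2, a receptor for DKK1 and DKK2, went from 0.202 FPKM in YTD to 8.73 in YAD and from 0.0805 in OTD to 7.58 in OAD, while Dkk1 stayed under its floor and Dkk2 below 1 FPKM in each of these libraries.

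Between ages, Sostdc1 was the only gene of this list past the limit as deposited. In TPM without mitochondrial genes, with or without muscle genes, Cer1 also passed it, as higher in old anagen (2.09 in OAD and 0.541 in YAD without mitochondrial genes). Sostdc1, a secreted inhibitor of Wnt and BMP signals, stood at 6.91 FPKM in OAD and 19.3 in YAD, a log2 difference of -1.36. None of the list passed the limit in telogen in any scaling run.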
